A study of Mus musculus with 11 samples.

Results

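The matrix metalloproteinases and their tissue inhibitors were followed through RNA-seq libraries of mouse airway by 9 genes: the metalloproteinases Mmp2, Mmp3, Mmp9, Mmp12 and Mmp14, the related membrane protease Adam33, and the inhibitors Timp1, Timp2 and Timp3. They were taken by name, as the Ensembl identifiers that map to these symbols, out of 21899 genes listed, and all 9 passed the filter on low values. Male wild-type BALB/c mice, aged 6 to 8 weeks, gave 11 libraries. PBS mice (n = 3 libraries) were not sensitised and received saline only. OVA/LPS/Vehicle mice (n = 4) were sensitised with ovalbumin in alum on days 0 and 7, challenged intranasally with ovalbumin on days 14 to 17, given intranasal LPS on days 19 and 21, and instilled through the trachea with vehicle on days 21 to 23. OVA/LPS/GGsTop mice (n = 4) received the same ovalbumin and LPS, and GGsTop, an inhibitor of γ-glutamyl transferase, at 0.5 mg/kg in place of vehicle. These groups are called vehicle and GGsTop below. All endpoints were taken on day 25. The PBS group lacked the ovalbumin and the LPS, and an instillation is not described for it. The sample labels name the tissue as trachea, whereas the methods of the study describe airway freed from the lung by blunt dissection, without the trachea. The OVA/LPS/Vehicle libraries carry the labels 12, 34, 56 and 78, and no source used here says whether each stands for a pool of mice. Nothing in the labels says that libraries of a group came from separate cages or days, and the p-values below measure the spread between these libraries.

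Matrix metalloproteinases are zinc-dependent proteases that cut collagens, elastin, proteoglycans and many secreted signals. Most are made as inactive proenzymes that other proteases activate, and TIMPs block the active site by binding to it. In the asthmatic airway this balance is studied for its part in the movement of leukocytes and in remodelling of the wall. Transcript levels do not give enzyme activity, because activation and inhibition follow translation.

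Mmp12 and Mmp3 lie in a cluster of 10 metalloproteinase genes on chromosome 9 (7272514 to 7699585, 427 kb, GRCm38), and their transcripts moved in opposite directions, so the 250 bases before their start sites are shown with those of Timp1, whose levels overlapped between all groups. The letters are those of RefSeq (GRCm38.p6), 5′ to 3′ on the strand of the gene. Capitals mark matches to the AP-1 motif TGANTCA and to the TATA motif TATAAA, both searched on both strands. The Mmp12 window, chr9:7347124-7347373 on the plus strand, precedes the downstream one of a pair of RefSeq start sites. The Mmp3 window is chr9:7445572-7445821 on the plus strand, and that of Timp1 is chrX:20869916-20870165 on the plus strand.
Mmp12: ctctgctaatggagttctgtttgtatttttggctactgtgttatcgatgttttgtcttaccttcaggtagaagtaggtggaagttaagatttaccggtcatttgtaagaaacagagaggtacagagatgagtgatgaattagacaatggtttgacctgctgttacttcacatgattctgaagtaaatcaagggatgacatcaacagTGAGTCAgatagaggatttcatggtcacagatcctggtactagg
Mmp3: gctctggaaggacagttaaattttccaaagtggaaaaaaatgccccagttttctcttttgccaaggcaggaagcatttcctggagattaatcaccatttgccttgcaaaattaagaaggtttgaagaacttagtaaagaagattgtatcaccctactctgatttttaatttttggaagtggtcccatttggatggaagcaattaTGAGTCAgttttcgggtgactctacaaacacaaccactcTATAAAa
Timp1: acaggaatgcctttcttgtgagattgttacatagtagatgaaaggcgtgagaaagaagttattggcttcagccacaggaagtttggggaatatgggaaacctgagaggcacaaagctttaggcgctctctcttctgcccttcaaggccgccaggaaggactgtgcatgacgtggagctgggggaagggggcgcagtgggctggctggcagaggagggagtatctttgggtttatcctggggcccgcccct

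Both chromosome 9 windows held the letters TGAGTCA, with the first base 44 bases before the start in Mmp12 and 46 bases before it in Mmp3. The Mmp3 window also held TATAAA, 7 bases before the start. The window of the upstream Mmp12 start site held neither motif. Of 32851 RefSeq windows of the same length, 6.75% held TGANTCA and 12.4% held TATAAA. RefSeq entries were found for 6 of the 9 genes, all but Mmp2, Mmp9 and Adam33, and the windows of Mmp14, Timp1, Timp2 and Timp3 held neither motif. The windows of Mmp3 and Mmp12 were poor in G and C (37.6% and 39.6%), and those of Timp2 (68%) and Timp3 (65.6%) were rich. A match of letters is a description and does not show that a factor was bound.

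The files give FPKM, fragments scaled to the exon length of a gene and to the total of its library. The fragments that these values imply ranged from 14513136 to 18632382 per library. Libraries differed in how their values leaned with the GC content of a gene. Relative to the mean of each gene over all libraries, this slope lay between −0.261 and −0.190 log2 units per 10 GC points among the vehicle libraries and between 0.0464 and 0.108 among the GGsTop libraries. PBS 1 and 2 had slopes of 0.0611 and 0.0484, and PBS 3 stood apart with 0.533. The GC slope is confounded with the groups, and its share in a group difference cannot be told apart from that of the treatment. Results of the 9 genes are therefore also given after a GC correction and without PBS 3. Genes of the other lists are given with PBS 3 in the fit. Without PBS 3, calls over all genes for vehicle against PBS went from 3096 lower and 2231 higher to 1889 and 1175. The 7 markers of airway epithelium summed to 26723 to 48720 FPKM, and nearly all of this sum was Scgb1a1 (26145 to 47905 FPKM). The sum thus says little of the other markers, of which Krt5 ranged from 0.0288 to 33.1 FPKM. The 6 alveolar epithelium markers summed to 10250 to 16313 FPKM in PBS, 5280 to 8708 in OVA/LPS/Vehicle and 4643 to 11990 in OVA/LPS/GGsTop. Sftpc made up most of each sum, and 2 other markers, Ager and Sftpb, were called lower in vehicle than in PBS. The 6 endothelial markers summed to 905 to 1683, 662 to 824 and 475 to 1069 FPKM in the same order, with 4 called lower. The 6 cardiac muscle markers summed to 95.3 to 1726, 838 to 1348 and 557 to 2350 FPKM, with Tnni3 and Tnnt2 called higher in vehicle than in PBS. The part of these cell types in the levels of the 9 genes was not tested. The 7 cartilage markers summed to 0.507 FPKM in PBS 3, 0.695 in OVA/LPS/GGsTop 1 and 0.571 in OVA/LPS/GGsTop 3, against 9.45 to 77.4 in the other libraries. Thyroid and parathyroid markers reached 101 to 598 FPKM in OVA/LPS/Vehicle 12, 34 and 56 and stayed at 2.04 to 4.75 elsewhere. No gene of the 16 marker lists was at 0 in all libraries. In bulk tissue, fewer cells of a type and less RNA per cell cannot be told apart.

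Ovalbumin and LPS went together with a rise of Mmp12, the macrophage elastase, and with lower levels of Mmp3, Mmp9, Mmp14, Adam33 and Timp2. Differences are given on the scale of log2(FPKM + 1) with their standard error (SE), from limma fitted to 14004 genes with the Benjamini-Hochberg adjustment of p over all of them, and a gene counts as called where that value is under 0.05. Of the 9 genes, 5 were called lower and 1 higher in the OVA/LPS/Vehicle group than in the PBS group. Of all genes tested, 22.1% were called lower and 15.9% higher in this comparison, 38% in either direction. The groups did not overlap for 6 of the 9 genes, with 5 below PBS (Mmp9, Mmp14, Timp2, Timp3 and Adam33) and 1 above (Mmp12), where 25.4% and 18.7% of all genes did so (44.1% together). With GGsTop, Adam33 rose against OVA/LPS/Vehicle and was the only one of the 9 called, where 6.90% of all genes were called higher and 1.81% lower (8.71% in either direction). Against PBS, the OVA/LPS/GGsTop group differed in Mmp12 alone, which was higher, where 2.06% of all genes were called higher and 0.821% lower (2.88% in either direction). The median difference of the 9 genes was −0.45 for vehicle against PBS, 0.36 for GGsTop against vehicle and −0.13 for GGsTop against PBS, beside −0.0148, 0.0313 and 0.0069 over all genes tested. After GC correction the medians of the 9 genes were −0.28, 0.22 and −0.0558. Most of the calls above were then lost. Mmp3 (lower) and Mmp12 (higher) alone were called for vehicle against PBS, where 21.5% of all genes were called. None of the 9, Adam33 included, was called for GGsTop against vehicle (2.24% of all genes). Mmp12 alone was called for GGsTop against PBS (4.35% of all genes). The comparisons share libraries in pairs and are not independent of each other.

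**Figure D1:**
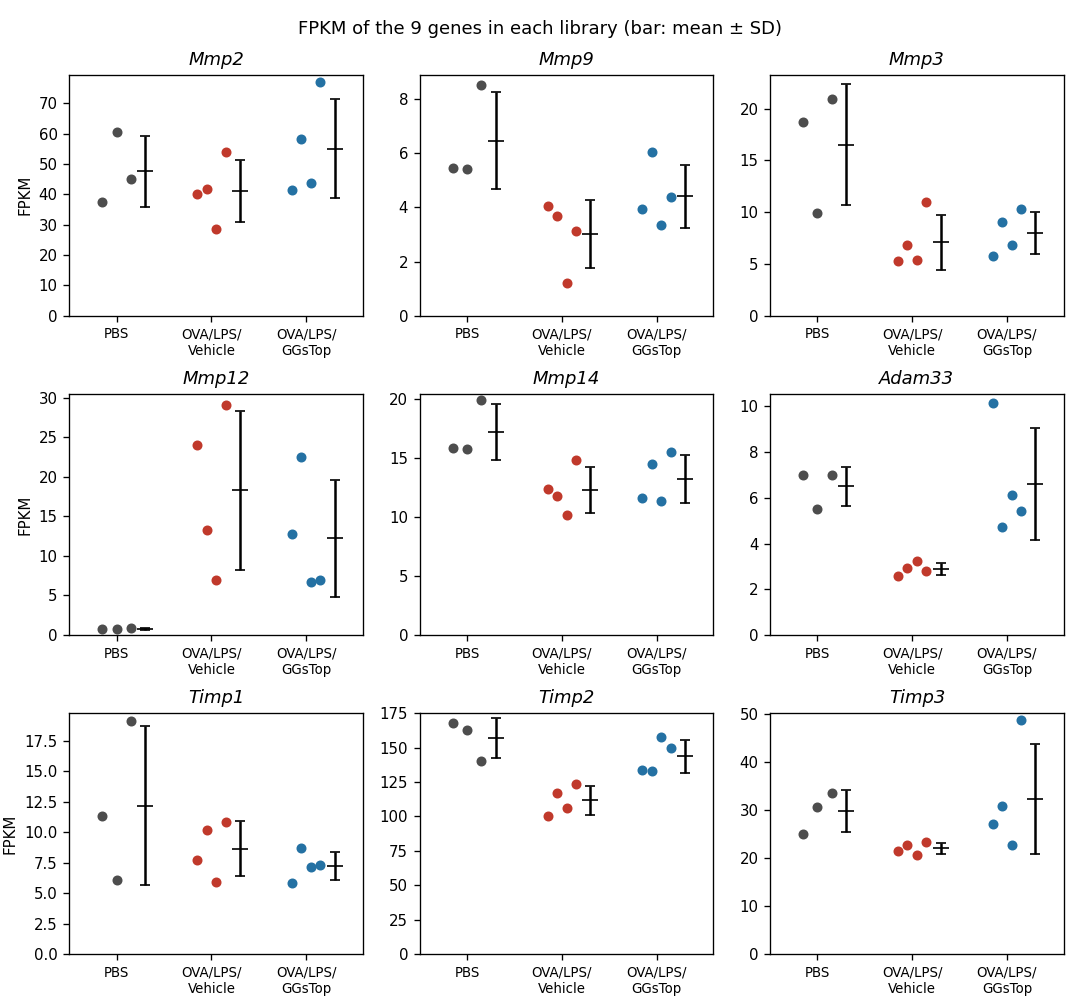
FPKM (vertical axes) of each gene by group, with 1 point per library and the mean ± SD beside the points (n = 3 PBS, 4 OVA/LPS/Vehicle, 4 OVA/LPS/GGsTop). Mmp12 stays under 1 FPKM in all PBS libraries and lies between 6.72 and 29.1 FPKM in the other libraries, whereas the 4 OVA/LPS/Vehicle points of Adam33 lie below all others.

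Mean FPKM, which is per length, placed the genes in a wide order over the 11 libraries. Timp2 led with 136 FPKM and ranked 218 among all genes listed. Mmp2 followed with 48.0 FPKM, Timp3 with 27.9 and Mmp14 with 13.98. Mmp12 (11.3), Mmp3 (10), Timp1 (9.11), Adam33 (5.22) and Mmp9 (4.46) lay below. Within the PBS group the order differed at one gene: Mmp12 was the least abundant of the 9 there. Neighbours in the order overlapped over the libraries, with 2 exceptions. Timp2 (100 to 168 FPKM) stayed above Mmp2 (28.7 to 77.0 FPKM), and Timp3 (20.7 to 48.8 FPKM) stayed above Mmp14 (10.2 to 19.96 FPKM).

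Mmp12 (ENSMUSG00000049723, chromosome 9, 7344381 to 7369499, plus strand) encodes macrophage elastase, a protease of macrophages that degrades elastin. It measured 0.706, 0.731 and 0.905 FPKM in PBS 1 to 3, values that rested on 77, 82 and 122 fragments. In OVA/LPS/Vehicle 12, 34, 56 and 78 it measured 24.0, 13.2, 6.96 and 29.1 FPKM, from 803 to 3516 fragments. The OVA/LPS/GGsTop libraries 1 to 4 gave 12.7, 22.5, 6.72 and 6.91 FPKM. Every library with ovalbumin and LPS lay above every PBS library, while the vehicle and GGsTop libraries overlapped over most of their ranges. The mean was 0.781 ± 0.108 FPKM (SD, n = 3) in PBS and 18.3 ± 10.1 FPKM (SD, n = 4) with vehicle, a 23.5-fold rise (difference 3.26, SE 0.46, adjusted p = 0.00337). In the OVA/LPS/GGsTop group the mean was 12.2 ± 7.41 FPKM (SD, n = 4), 15.7-fold that of PBS (2.74, SE 0.46, adjusted p = 0.0160). Between GGsTop and vehicle the difference was −0.53 (SE 0.43, adjusted p = 0.416), with a 95% interval from −1.46 to 0.40.

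The call of Mmp12 against PBS held for the vehicle group under every alternative run, with differences from 2.78 to 4.34. For the GGsTop group it was lost when PBS 1 (adjusted p = 0.0803), PBS 3 (0.0681) or OVA/LPS/GGsTop 1 (0.0550) was left out, with differences from 2.67 to 2.79. With the shared replicate numbers of PBS and OVA/LPS/GGsTop as a block, in a fit that drops OVA/LPS/GGsTop 4 and the vehicle group, Mmp12 was called higher (2.93, adjusted p = 0.0226) while calls over all genes went from 115 lower and 288 higher to 16 and 46. Mmp12 had the lowest GC content of the 9 genes (40.2%, the 6.46th percentile of genes tested), and after GC correction its differences from PBS were 2.78 (adjusted p = 0.00877) and 2.59 (adjusted p = 0.0191). The 3′ end of its exons overlaps those of Mmp1b on the opposite strand, and the strand setting of the counting is not given in the sources used here. Mmp1b itself was listed at 0 in 10 libraries and at 0.0445 FPKM in 1 OVA/LPS/Vehicle library.

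The summed FPKM of 10 macrophage markers, among them Cd68 and Adgre1, ranged from 148 to 213 in PBS, from 143 to 271 in OVA/LPS/Vehicle and from 204 to 286 in OVA/LPS/GGsTop. Of these 10 markers, 1 was called higher (C1qa) and 2 lower (Csf1r and Mertk) in OVA/LPS/Vehicle than in PBS. Per 100 FPKM of macrophage markers, Mmp12 amounted to 0.398 to 0.478 FPKM in PBS, 4.85 to 11.1 in OVA/LPS/Vehicle and 2.64 to 7.86 in OVA/LPS/GGsTop. On this measure too, every library with ovalbumin and LPS lay above every PBS library. The part of macrophage content in the rise of Mmp12 was not tested. Within the OVA/LPS/Vehicle group, the libraries stood in the same order for Mmp12 and for the marker sum (56, 34, 12 and 78). The order was not shared in the OVA/LPS/GGsTop group, although GGsTop 2 was highest in both. There GGsTop 1 had the lowest marker sum (204 FPKM) with 12.7 FPKM of Mmp12. GGsTop 4 had a sum of 262 FPKM with 6.91 FPKM of Mmp12.

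**Figure D2:**
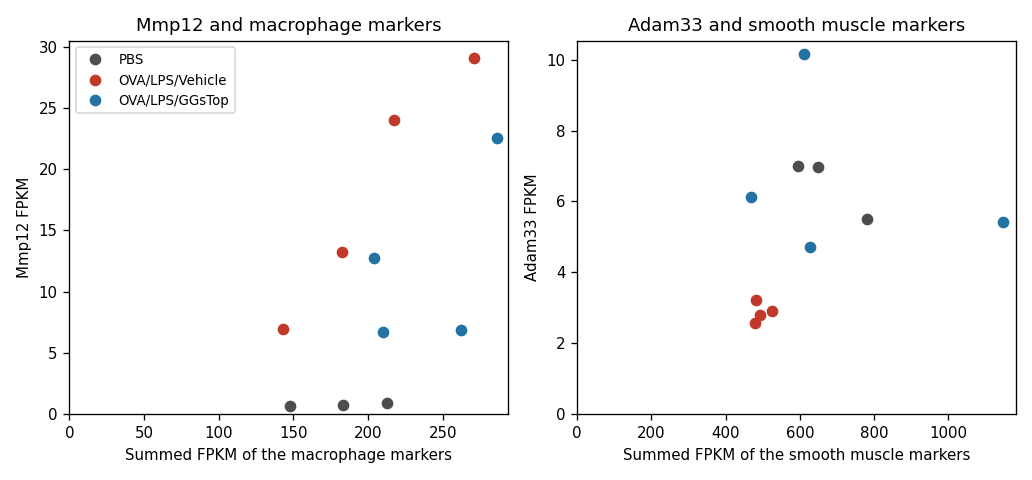
FPKM of Mmp12 against the summed FPKM of 10 macrophage markers (left) and of Adam33 against the summed FPKM of 6 smooth muscle markers (right), with 1 point per library coloured by group. At similar macrophage sums Mmp12 is under 1 FPKM in PBS and at least 6.72 FPKM in the other groups, and the OVA/LPS/Vehicle libraries lie at the lower left for Adam33.

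The gelatinases Mmp2 and Mmp9 cut denatured collagen and basement membrane, and the stromelysin Mmp3 cuts proteoglycans and can activate other proenzymes. Mmp2 (ENSMUSG00000031740, chromosome 8, 92827291 to 92853420, plus strand) measured 37.4, 60.5 and 45.0 FPKM in PBS 1 to 3. The vehicle libraries 12, 34, 56 and 78 gave 40.1, 41.7, 28.7 and 53.9 FPKM, and the GGsTop libraries 1 to 4 gave 41.4, 58.3, 43.6 and 77.0 FPKM. All 3 groups overlapped. Its differences were −0.21 (SE 0.25, adjusted p = 0.511) for vehicle against PBS, 0.40 (SE 0.23, adjusted p = 0.257) for GGsTop against vehicle and 0.19 (SE 0.25, adjusted p = 0.695) for GGsTop against PBS, none of them past the threshold. Mmp2 is made by fibroblasts, and 8 fibroblast markers, Pdgfra and Dcn among them, were summed. Per 100 FPKM of these markers Mmp2 amounted to 13.9 to 15.2 FPKM in PBS, 11.8 to 14.2 in OVA/LPS/Vehicle and 14.7 to 16.8 in OVA/LPS/GGsTop. The vehicle and GGsTop ranges did not overlap on this measure, by a small margin, whereas they overlapped in FPKM. The share of all genes that would do so on this measure was not computed. On FPKM, 29.7% of all genes did not overlap between these groups. Col1a2, the gene closest to Mmp2 over the libraries, is among the 8 markers. The part of fibroblast content in the level of Mmp2 was not tested.

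Mmp9 (ENSMUSG00000017737, chromosome 2, 164940780 to 164955850, plus strand), the gelatinase stored in neutrophil granules, measured 5.46, 5.41 and 8.52 FPKM in PBS 1 to 3. In OVA/LPS/Vehicle it lay at 4.05, 3.66, 1.21 and 3.11 FPKM for the libraries 12, 34, 56 and 78, each below every PBS library. The GGsTop libraries gave 3.92, 6.04, 3.33 and 4.37 FPKM and overlapped both other groups. Vehicle against PBS, Mmp9 was lower by a difference of −0.94 (SE 0.28, adjusted p = 0.0219), with means of 3.01 ± 1.26 FPKM (SD, n = 4) and 6.47 ± 1.78 FPKM (SD, n = 3). This call was lost without PBS 3 (−0.75, adjusted p = 0.102) and after GC correction (−0.66, adjusted p = 0.0838). With GGsTop the difference from vehicle was 0.48 (SE 0.25, adjusted p = 0.220) and from PBS −0.46 (SE 0.28, adjusted p = 0.365). The sum of 9 neutrophil markers was 193 to 353 FPKM in PBS, 482 to 663 in OVA/LPS/Vehicle and 217 to 603 in OVA/LPS/GGsTop, and 3 of 8 tested were called higher and 1 lower in vehicle than in PBS. Ltf, the lactoferrin gene, carried the higher sum, at 2.92 to 178 FPKM in PBS, 222 to 522 in OVA/LPS/Vehicle and 15.1 to 452 in OVA/LPS/GGsTop. Without Ltf, a choice made after its values were seen, the other 8 markers summed to 107 to 350, 141 to 264 and 151 to 301 FPKM, and the groups overlapped. Per 100 FPKM of these 8 markers Mmp9 amounted to 2.44 to 5.06 FPKM in PBS, 0.853 to 1.75 in OVA/LPS/Vehicle and 1.65 to 2.89 in OVA/LPS/GGsTop. The part of neutrophil content in the level of Mmp9 was not tested.

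Mmp3 (ENSMUSG00000043613, chromosome 9, 7445822 to 7455975, plus strand) measured 18.7, 9.89 and 20.98 FPKM in PBS 1 to 3. The vehicle libraries 12, 34, 56 and 78 gave 5.27, 6.81, 5.40 and 10.96 FPKM, and the GGsTop libraries 1 to 4 gave 5.79, 9.03, 6.83 and 10.4 FPKM. PBS 2 lay within the range of the treated groups, and PBS 1 and 3 lay above them. The mean of 16.5 ± 5.86 FPKM (SD, n = 3) in PBS compared with 7.11 ± 2.66 FPKM (SD, n = 4) in the vehicle group (−1.10, SE 0.29, adjusted p = 0.0142). The GGsTop mean was 8.0 ± 2.07 FPKM (SD, n = 4), a difference of 0.17 from vehicle (SE 0.27, adjusted p = 0.688) and of −0.93 from PBS (SE 0.29, adjusted p = 0.103). The lower level in vehicle was still called after GC correction (−1.27, adjusted p = 0.0191), and it was lost without PBS 3 (−0.90, adjusted p = 0.0683). Without PBS 2, Mmp3 was called lower in the GGsTop group too (−1.24, adjusted p = 0.0179).

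Among the other genes of the chromosome 9 cluster, Mmp13, a collagenase, measured 0.879 FPKM on average in PBS, 1.86 in OVA/LPS/Vehicle and 0.885 in OVA/LPS/GGsTop, and it was not called in any comparison. Mmp8, the neutrophil collagenase, had means of 1.91, 1.86 and 1.61 FPKM in the same order. Mmp27 reached at most 0.601 FPKM and Mmp7 at most 0.0604 FPKM. Mmp1a, Mmp10 and Mmp20 were listed at 0 in all 11 libraries. Within the cluster the 2 most abundant genes were thus Mmp12 and Mmp3, which differed from PBS in opposite directions in the vehicle group.

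**Figure D3:**
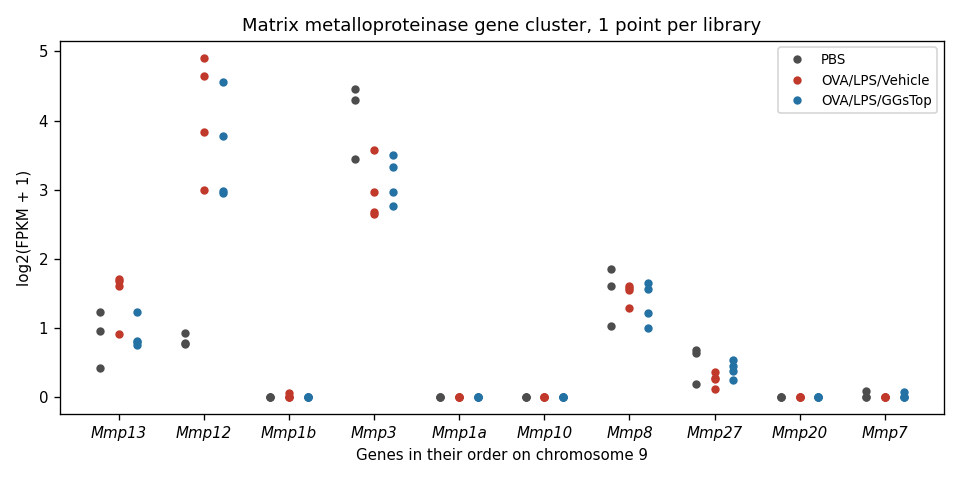
Levels as log2(FPKM + 1) (vertical axis) of 10 metalloproteinase genes in their order on chromosome 9, with 1 point per library coloured by group. Mmp12 is low in PBS and high with ovalbumin and LPS, Mmp3 is highest in 2 of the 3 PBS libraries, and Mmp1a, Mmp10 and Mmp20 are listed at 0.

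The membrane-bound members are Mmp14, which activates the Mmp2 proenzyme on the cell surface together with TIMP2, and Adam33, a protease of airway smooth muscle and fibroblasts known as an asthma susceptibility gene. Mmp14 (ENSMUSG00000000957, chromosome 14, 54431612 to 54445364, plus strand) measured 15.8, 15.8 and 19.96 FPKM in PBS 1 to 3. The vehicle libraries 12, 34, 56 and 78 gave 12.4, 11.8, 10.2 and 14.9 FPKM, and the GGsTop libraries 1 to 4 gave 11.6, 14.5, 11.3 and 15.5 FPKM. All 8 libraries with ovalbumin and LPS lay below the 3 PBS libraries, by a small margin in OVA/LPS/GGsTop 4. Vehicle against PBS, the difference was −0.45 (SE 0.15, adjusted p = 0.0339), and the call was lost without PBS 3 (adjusted p = 0.131), without OVA/LPS/Vehicle 12 (0.0562), 34 (0.0723) or 56 (0.0879), and after GC correction (−0.22, adjusted p = 0.228). GGsTop against vehicle gave 0.10 (SE 0.14, adjusted p = 0.663) and GGsTop against PBS −0.36 (SE 0.15, adjusted p = 0.208). Besides Mmp12, Mmp14 was the only gene of the 9 whose GGsTop libraries did not overlap PBS, where 7.22% of all genes lay above and 7.54% below (14.8% together).

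Adam33 (ENSMUSG00000027318, chromosome 2, 131050591 to 131063814, minus strand) measured 6.99, 5.51 and 6.97 FPKM in PBS 1 to 3. In OVA/LPS/Vehicle 12, 34, 56 and 78 it measured 2.57, 2.91, 3.22 and 2.81 FPKM. The GGsTop libraries 1 to 4 gave 10.2, 4.73, 6.12 and 5.42 FPKM. No vehicle library reached any library of the other groups, and PBS and GGsTop overlapped, with OVA/LPS/GGsTop 1 above all. Adam33 averaged 6.49 ± 0.849 FPKM (SD, n = 3) in PBS, fell to a mean of 2.88 ± 0.270 FPKM (SD, n = 4) with vehicle (−0.95, SE 0.19, adjusted p = 0.00616) and was 6.61 ± 2.43 FPKM (SD, n = 4) with GGsTop, 2.30-fold the vehicle mean (0.93, SE 0.18, adjusted p = 0.0204). Between GGsTop and PBS the difference was −0.0207 (SE 0.19, adjusted p = 0.961), with a 95% interval from −0.45 to 0.40.

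The rise of Adam33 with GGsTop kept its direction when each library was left out, and its adjusted p passed 0.05 without OVA/LPS/Vehicle 34 (0.0592), 56 (0.0718) or 78 (0.0527) and without OVA/LPS/GGsTop 1 (0.0526) or 3 (0.0524). Its GC content was the highest of the 9 genes (58.2%, the 91.0th percentile), and after GC correction the difference was −0.57 for vehicle against PBS (adjusted p = 0.0632) and 0.66 for GGsTop against vehicle (adjusted p = 0.0744), so that both calls were lost. The 6 smooth muscle markers, Acta2 and Myh11 among them, summed to 594 to 782 FPKM in PBS, 479 to 526 in OVA/LPS/Vehicle and 469 to 1148 in OVA/LPS/GGsTop, where GGsTop 4 was the highest. Of these markers 5 passed the filter on low values, all but Tagln. Per 100 FPKM of these markers Adam33 amounted to 0.705 to 1.18 FPKM in PBS, 0.537 to 0.670 in OVA/LPS/Vehicle and 0.472 to 1.66 in OVA/LPS/GGsTop, and the vehicle and GGsTop ranges overlapped. The part of smooth muscle content in the change of Adam33 was not tested.

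Of the inhibitors, Timp1 is the one induced by inflammation and growth factors, Timp2 is made widely and takes part in the activation of Mmp2, and Timp3 binds to the matrix and also blocks ADAM proteases. Timp2 (ENSMUSG00000017466, chromosome 11, 118301069 to 118355740, minus strand) measured 168, 163 and 140 FPKM in PBS 1 to 3. The vehicle libraries 12, 34, 56 and 78 gave 100, 117, 106 and 123 FPKM, below every other library, and the GGsTop libraries 1 to 4 gave 134, 133, 158 and 149 FPKM. The mean was 157 ± 14.6 FPKM (SD, n = 3) in PBS, 112 ± 10.4 FPKM (SD, n = 4) with vehicle and 144 ± 12.1 FPKM (SD, n = 4) in OVA/LPS/GGsTop. Vehicle against PBS, Timp2 was called lower (−0.49, SE 0.12, adjusted p = 0.0111), a call lost after GC correction (−0.28, adjusted p = 0.144). GGsTop against vehicle gave 0.36 (SE 0.11, adjusted p = 0.0594), short of the threshold although the groups did not overlap. Timp2 and Adam33 were the 2 genes of the 9 for which all GGsTop libraries lay above all vehicle libraries, as 17.3% of all genes did, and none of the 9 lay below, as 12.4% did (29.7% together). The difference of Timp2 passed without PBS 3 (adjusted p = 0.0204), in a fit of these groups alone (0.0275), with array weights (0.0250) and with libraries at the same FPKM total (0.0230), and it did not pass after GC correction (0.22, adjusted p = 0.306). Each setting under which Timp2 passed also called more genes higher with GGsTop than with vehicle. Over all genes these calls numbered 2144, 2119, 3232 and 2026, in the order just given, where the fit used throughout gave 966. After GC correction they numbered 252. The passes were thus not particular to Timp2. GGsTop against PBS differed by −0.13 (SE 0.12, adjusted p = 0.566).

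Timp3 (ENSMUSG00000020044, chromosome 10, 86300372 to 86349506, plus strand) measured 25.1, 30.6 and 33.7 FPKM in PBS 1 to 3, and 21.5, 22.8, 20.7 and 23.3 FPKM in OVA/LPS/Vehicle 12, 34, 56 and 78. With GGsTop it measured 27.0, 30.9, 22.7 and 48.8 FPKM in the libraries 1 to 4. The vehicle libraries lay below PBS, GGsTop 3 lay within the vehicle range, and GGsTop 4 stood above all. The differences were −0.41 (SE 0.21, adjusted p = 0.136) for vehicle against PBS, 0.48 (SE 0.19, adjusted p = 0.124) for GGsTop against vehicle and 0.0675 (SE 0.21, adjusted p = 0.873) for GGsTop against PBS. The lower level in vehicle was called without GGsTop 4 in the fit (adjusted p = 0.0297), with libraries at the same FPKM total (adjusted p = 0.0353) and in a fit of the groups compared (adjusted p = 0.0388). Per 100 FPKM of smooth muscle markers Timp3 spanned 3.92 to 5.19 in PBS, 4.31 to 4.73 in OVA/LPS/Vehicle and 4.25 to 4.92 in OVA/LPS/GGsTop, and GGsTop 4 was also the library with the highest sum of these markers. Exons of Timp3 overlap those of Syn3 on the opposite strand, which measured 0.117 to 0.389 FPKM.

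Timp1 (ENSMUSG00000001131, chromosome X, 20870166 to 20874735, plus strand) measured 11.4, 6.10 and 19.1 FPKM in PBS 1 to 3, the widest relative spread of the 9 genes in that group. The vehicle libraries gave 7.70, 10.2, 5.93 and 10.8 FPKM and the GGsTop libraries 5.83, 8.69, 7.14 and 7.30 FPKM. All groups overlapped, and the PBS libraries alone spanned most of the range. The differences were −0.35 (SE 0.30, adjusted p = 0.357), −0.21 (SE 0.28, adjusted p = 0.635) and −0.56 (SE 0.30, adjusted p = 0.310) for vehicle against PBS, GGsTop against vehicle and GGsTop against PBS. These values depended on PBS 2 and 3. Without PBS 2, Timp1 was called lower than PBS in both treated groups (−0.74, adjusted p = 0.0310, and −0.95, adjusted p = 0.0344), and without PBS 3 the difference for vehicle against PBS was 0.0132 (adjusted p = 0.976).

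**Figure D4:**
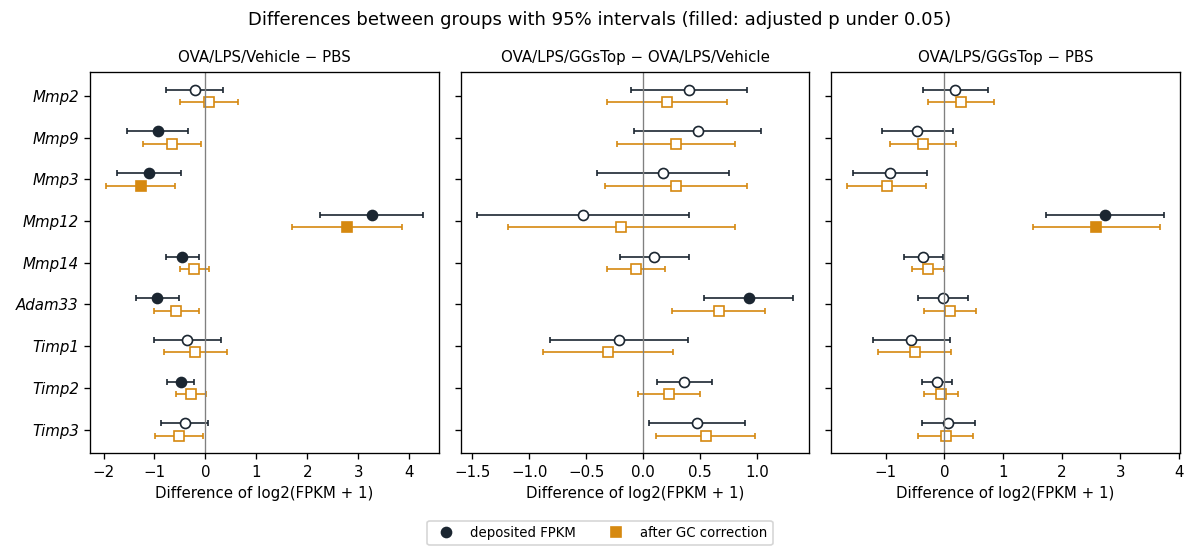
Difference of log2(FPKM + 1) (horizontal axes) between groups for each gene with its 95% interval, from the deposited FPKM (circles) and after GC correction (squares), with filled symbols where the adjusted p is under 0.05. Mmp12 stays filled against PBS in both versions, and Adam33 is filled with GGsTop against vehicle on the deposited values alone.

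After GC correction, 2 of the 9 genes were called for vehicle against PBS (Mmp3 lower and Mmp12 higher), none for GGsTop against vehicle and 1 for GGsTop against PBS (Mmp12). Of all genes tested after this correction, 13.3% were called lower and 8.11% higher for vehicle against PBS (21.5% in either direction), 0.436% and 1.80% for GGsTop against vehicle (2.24%), and 1.34% and 3.01% for GGsTop against PBS (4.35%). Of the 9 genes, 2 had an unadjusted p under 0.05 for GGsTop against vehicle after this correction, and limma voom on fragments recovered from the FPKM called 1, as on the deposited values. With libraries set to the same FPKM total, the median difference of all genes moved from −0.0148 to −0.15 for vehicle against PBS and from 0.0313 to 0.11 for GGsTop against vehicle. The split of all calls into lower and higher moved with it, from 3096 and 2231 to 4570 and 1232 for vehicle against PBS, from 254 and 966 to 155 and 2026 for GGsTop against vehicle, and from 115 and 288 to 243 and 250 for GGsTop against PBS. At the same median it was 354 and 344 for GGsTop against vehicle. Against these shifts Mmp12, Mmp3, Mmp9, Mmp14, Adam33 and Timp2 kept the calls and directions given above for vehicle against PBS.

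The balance of proteases and inhibitors was read as the summed FPKM of Mmp2, Mmp3, Mmp9, Mmp12 and Mmp14 over that of the 3 TIMP genes in each library. The ratio was 0.383, 0.463 and 0.494 in PBS 1 to 3. It was 0.664, 0.515, 0.394 and 0.711 in OVA/LPS/Vehicle 12, 34, 56 and 78, and 0.453, 0.639, 0.383 and 0.555 in OVA/LPS/GGsTop 1 to 4. The 3 groups overlapped. The log2 ratio differed by 0.33 for vehicle against PBS (exact two-sided permutation test, p = 0.229), by −0.16 for GGsTop against vehicle (exact permutation p = 0.543) and by 0.17 for GGsTop against PBS (exact permutation p = 0.514), each with an adjusted p of 0.543 over the 3 comparisons. The smallest p that this test can give is 0.0571 for 3 against 4 libraries and 0.0286 for 4 against 4. Mmp12 made up 0.792% to 0.949% of the summed metalloproteinase FPKM in PBS, 13.3% to 28.0% in OVA/LPS/Vehicle and 6.05% to 20.4% in OVA/LPS/GGsTop. Without Mmp12 the differences of the log2 ratio were −0.0080, −0.0207 and −0.0287 (exact permutation p = 0.971, 0.914 and 1). With the mean of log2(FPKM + 1) in place of sums, which gives each gene the same weight, the metalloproteinases stood higher against the TIMP genes in both treated groups than in PBS, by 0.53 and 0.44, each at the smallest p possible (exact permutation p = 0.0571, adjusted p = 0.0857). This too rested on Mmp12. Without it, in a comparison added after the data were seen, the mean log2 difference turned to −0.26 for vehicle against PBS (exact permutation p = 0.0571, adjusted p = 0.171) and −0.18 for GGsTop against PBS (exact permutation p = 0.171, adjusted p = 0.257).

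**Figure D5:**
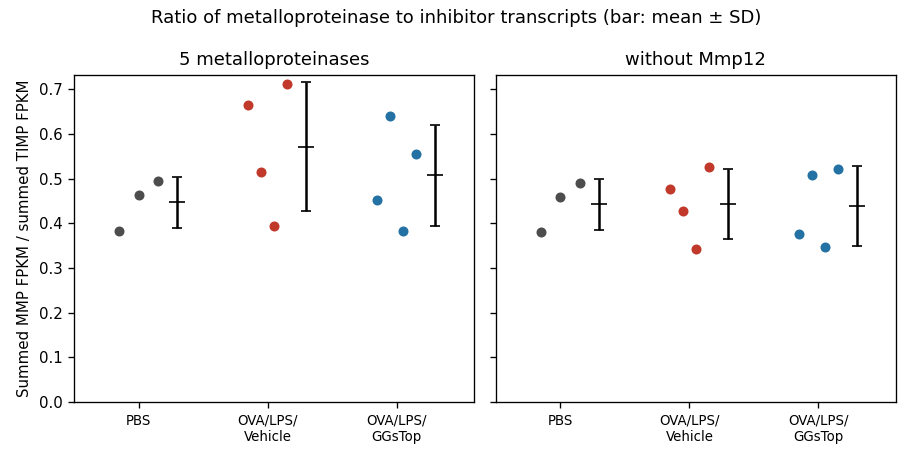
Ratio of summed metalloproteinase FPKM to summed TIMP FPKM (vertical axis) with all 5 metalloproteinases (left) and without Mmp12 (right), with 1 point per library and the mean ± SD beside the points (n = 3, 4 and 4). The groups overlap in both panels, and the vehicle points reach 0.711 with Mmp12.

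The genes whose levels followed each of the 9 most closely over the 11 libraries are given as a description, by Pearson's r of log2(FPKM + 1). The libraries differ in depth, in GC slope and in marker sums, and r also holds these differences. The order does not speak of shared control. For Mmp12 they were Chfr (r = 0.958), Chil3 (0.947), which encodes a chitinase-like protein of activated macrophages, and the chemokine Ccl9 (0.946). Chil3 measured 44.7 to 72.7 FPKM in PBS, 131 to 735 in OVA/LPS/Vehicle and 270 to 683 in OVA/LPS/GGsTop. Mmp2 was closest to the collagen gene Col1a2 (0.968), the laminin gene Lama2 (0.961) and Hdlbp (0.953). Mmp3 was closest to Zbtb12 (0.935), the TWEAK receptor gene Tnfrsf12a (0.930) and the basement membrane gene Nid1 (0.911). For Mmp9 the closest were Syt7 (0.941), Mppe1 (0.932) and the hexokinase Hk3 (0.931), and for Mmp14 Serinc2 (0.947), Chid1 (0.932) and Lgals7 (0.917). Adam33 was closest to 2010111I01Rik (0.967), Arhgef25 (0.963) and Dcp1b (0.951). Timp1 was closest to Pmepa1 (0.921), Brinp1 (0.897) and Tmem171 (0.895), and Timp2 to Lima1 (0.951), Zfp334 (0.939) and Aox3 (0.914). Timp3 was closest to Zfp651 (0.963), Des (0.951), the desmin gene of muscle, and Arhgef19 (0.949). Among the 9 genes themselves, the pair with the highest r was Mmp3 and Mmp14 (0.903), and Mmp12 had an r from −0.674 (Timp2) to 0.0422 (Mmp2) with the others.

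The rest of the metalloproteinase family held 18 genes, 9 of which passed the filter. For vehicle against PBS 3 were called lower and none higher, where 22.1% of all genes were called lower. These were Mmp11 (−1.05, SE 0.18, adjusted p = 0.00396), Mmp28 (−0.77, SE 0.21, adjusted p = 0.0173) and the membrane-type Mmp15 (−0.49, SE 0.13, adjusted p = 0.0157), and Mmp11 alone was called after GC correction (adjusted p = 0.0148). No gene of this list was called for GGsTop against vehicle, where the smallest p-values belonged to Mmp17 (0.38), Mmp15 (0.34) and Mmp13 (−0.58), at adjusted p from 0.0695 to 0.102. None was called for GGsTop against PBS either, with Mmp11 (−0.67), Mmp28 (−0.66) and Mmp25 (0.44) at adjusted p from 0.0689 to 0.228. The median differences over the list were −0.31, 0.34 and −0.14. No other tested metalloproteinase was called higher in either treated group than in PBS.

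Of 11 further inhibitors and surface partners of metalloproteinases, 10 were tested. Lrp1, a receptor that takes up metalloproteinase and inhibitor complexes, was lower in vehicle than in PBS (−1.35, SE 0.19, adjusted p = 0.00337) and higher with GGsTop than with vehicle (0.98, SE 0.18, adjusted p = 0.0190), and both calls held after GC correction (adjusted p = 0.00662 and 0.0323). Reck, a membrane-anchored inhibitor of Mmp2, Mmp9 and Mmp14, was lower in vehicle (−0.63, SE 0.12, adjusted p = 0.00472), and the integrin Itgav was higher (0.69, SE 0.15, adjusted p = 0.00823). No other gene of the list was called. Itgav (−0.46) and Itgb1 (−0.44) had adjusted p of 0.0609 and 0.0636 for GGsTop against vehicle, and Reck (−0.37), Lrp1 (−0.37) and Cav1 (−0.35) had adjusted p from 0.109 to 0.378 for GGsTop against PBS.

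The plasminogen system and the proprotein convertases, which activate metalloproteinase proenzymes, were represented by 11 genes, 9 of them tested. Furin, which activates Mmp14, was lower in vehicle than in PBS (−0.75, SE 0.14, adjusted p = 0.00431), and so was the convertase Pcsk7 (−0.50, SE 0.14, adjusted p = 0.0170). Furin was higher with GGsTop than with vehicle (0.56, SE 0.13, adjusted p = 0.0284), a call lost after GC correction (0.35, adjusted p = 0.0506), and Pcsk7 (0.40) had an adjusted p of 0.0650 there. Plau, the urokinase gene, was lower in GGsTop than in PBS (−0.60, SE 0.14, adjusted p = 0.0476), where Furin (−0.19) had an adjusted p of 0.438.

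Among the relatives of Adam33, no ADAM gene was called both lower in vehicle than in PBS and higher with GGsTop than with vehicle. Of 11 ADAM genes, all tested, 4 were higher and 1 lower in vehicle than in PBS. In this comparison 15.9% of all genes were called higher and 22.1% lower. Adamdec1 (1.63, SE 0.36, adjusted p = 0.00798), Adam28 (1.28, SE 0.27, adjusted p = 0.00662) and Adam10 (0.67, SE 0.16, adjusted p = 0.0114) had the smallest p-values. Adamdec1 (1.60, adjusted p = 0.0408) and Adam28 (1.21, adjusted p = 0.0393) were also higher in GGsTop than in PBS, where Adam17 (−0.33) had an adjusted p of 0.0744. After GC correction Adamdec1 kept this call (1.51, adjusted p = 0.0326) and Adam28 lost it (1.06, adjusted p = 0.0529). None was called for GGsTop against vehicle, with Adam12 (−0.44), Adam10 (−0.47) and Adam19 (0.29) at adjusted p from 0.0594 to 0.146. Of 18 ADAMTS genes 13 were tested, and 8 were lower in vehicle than in PBS, where 22.1% of all genes were. The smallest p-values were those of Adamts14 (−0.76, adjusted p = 0.00337), Adamts10 (−1.30, adjusted p = 0.00625) and Adamts8 (−0.73, adjusted p = 0.00801). Adamts14 was higher with GGsTop than with vehicle (0.44, SE 0.10, adjusted p = 0.0302; after GC correction 0.17, adjusted p = 0.393), while Adamts10 (0.84) and Adamts2 (0.69) had adjusted p of 0.0555 and 0.0576. Against PBS none was called with GGsTop, and Adamts14 (−0.32), Adamts17 (−0.36) and Adamts8 (−0.42) had adjusted p from 0.139 to 0.177. After GC correction 4 of the 8 lower ADAMTS genes and 1 of the 4 higher ADAM genes, Adamdec1, kept their calls for vehicle against PBS. Over all genes, 13.3% were called lower and 8.11% higher after this correction.

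Other proteases of elastin were represented by 10 genes of elastases, cysteine cathepsins and their inhibitors, 6 of them tested. In vehicle against PBS 4 were higher and none lower, where 15.9% of all genes were called higher and 22.1% lower. They were Slpi (1.87, SE 0.42, adjusted p = 0.00844), a secreted inhibitor of neutrophil elastase, Ctsk (1.31, SE 0.32, adjusted p = 0.0113), Ctsl (0.45, SE 0.12, adjusted p = 0.0143) and Ctss (0.80, SE 0.28, adjusted p = 0.0409). Slpi was also higher in GGsTop than in PBS (2.27, SE 0.42, adjusted p = 0.0218), where Ctsk (1.22) and Cst3 (−0.31) had adjusted p of 0.0655 and 0.304. None was called for GGsTop against vehicle, with Ctsl (−0.37), Ctss (−0.28) and Slpi (0.40) at adjusted p from 0.0526 to 0.502. Slpi and Ctsk were the genes still called after GC correction for vehicle against PBS, where 8.11% of all genes were called higher.

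Of 20 genes of matrix substrates, 9 were lower in vehicle than in PBS and none was higher, with a median difference of −0.32, where 22.1% of all genes were called lower and 15.9% higher. The smallest p-values were those of Loxl1 (−1.50, SE 0.25, adjusted p = 0.00366), which crosslinks elastin, Lamc1 (−0.58, SE 0.10, adjusted p = 0.00413) and the fibrillin gene Fbn1 (−0.79, SE 0.14, adjusted p = 0.00427), and 5 of the 9 were still called after GC correction, where 13.3% of all genes were called lower. Eln, the elastin gene and a substrate of Mmp12, was lower in vehicle (−1.07, SE 0.29, adjusted p = 0.0167) and in GGsTop (−1.36, SE 0.29, adjusted p = 0.0338) than in PBS, with means of 132 ± 58.2, 58.6 ± 13.4 and 46.9 ± 6.18 FPKM (SD, n = 3, 4 and 4). The PBS libraries (67.5 to 181 FPKM of Eln) overlapped the vehicle libraries (42.9 to 75.6 FPKM). After GC correction the call of Eln for vehicle was lost (−0.68, adjusted p = 0.0744) and that for GGsTop was kept (−1.25, adjusted p = 0.0253). Loxl1 (−1.02) and Fbn1 (−0.50) had adjusted p of 0.0524 and 0.0775 in GGsTop against PBS. None of the 20 was called for GGsTop against vehicle, with Col5a1 (0.46), Lamc1 (0.33) and Col1a1 (0.79) at adjusted p from 0.0501 to 0.0609.

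Among 20 genes of cytokines and transcription factors that induce metalloproteinase genes, 15 were tested. In vehicle against PBS 4 were lower and 1 higher, where 22.1% of all genes were called lower and 15.9% higher. The smallest p-values were those of the AP-1 subunit Junb (−0.71, SE 0.18, adjusted p = 0.0122), Ets2 (−0.52, SE 0.14, adjusted p = 0.0145) and Il4 (0.76, SE 0.25, adjusted p = 0.0321). These 3 lost their calls after GC correction, whereas Ets1 (−0.46, adjusted p = 0.0491) kept its call (−0.55, adjusted p = 0.0363). Ets1 was also lower in GGsTop than in PBS (−0.83, SE 0.17, adjusted p = 0.0284), where Il4 (0.68) and Junb (−0.44) had adjusted p of 0.157 and 0.191. None was called for GGsTop against vehicle, and Ets2 (0.34), Ets1 (−0.37) and Il1b (−0.44) had adjusted p from 0.10 to 0.231.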

How the data were processed

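Poly-A selected airway RNA (3 libraries of PBS, 4 of OVA/LPS/Vehicle and 4 of OVA/LPS/GGsTop mice) was sequenced on an Illumina platform. The authors deposited FPKM, 1 column per library. The submitters' processing notes name cutadapt 1.15, HISAT2 2.0.5, HTSeq 0.9.1 and the build mm39. The annotation and the strand setting are not given in the sources used here. Because the deposited values are FPKM and not counts, log2(FPKM + 1) was fitted here with limma 3.58.1 in R 4.3.3, for 14004 genes whose mean reached 0.5 FPKM, in 1 fit of all 11 libraries with a mean-variance trend, and two-sided p-values were adjusted over these genes. The pseudocount of 1 understates the fold of low genes. The 9 genes and all gene lists were chosen with earlier results of these data known.

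Symbols (for 21795 identifiers, 26 of them shared), positions, exon lengths and GC content came from GENCODE M21 on GRCm38, since the files hold no coordinates, and no coordinate was converted. With these lengths 97.8% of genes were whole multiples of 1 fragment, within 0.01 fragment, in every library, which gave the implied depth and the fragments of a gene. These cover counting error only. GC content was corrected for by removing, library by library, a natural spline (5 degrees of freedom) from the deviations. The same-numbered PBS and OVA/LPS/GGsTop libraries deviated together (r = 0.367 to 0.428 in 3 pairs), and a block over these numbers was run, although no label says what a number marks. Different-numbered pairs had r from −0.693 to 0.457. Summed ratios were compared with an exact two-sided permutation test (scipy 1.17.1). The genes named besides the 9 are the 3 with the smallest p in each list and comparison, the called genes named for their role in a list, the first genes of each marker list, the genes of the chromosome 9 cluster, and the 3 closest by Pearson's r to each of the 9. Further markers named are Ltf, Scgb1a1 and those called among macrophage, alveolar epithelium and cardiac muscle markers. These, and Ctss, Eln and Ets1 for vehicle against PBS, were named after their values were seen. For 1 further gene of this choice no result is given, and its list is described without counts of calls. The alternatives were a pseudocount of 0.1, a filter at 1 FPKM or no filter, libraries set to an equal FPKM total or median, a fit without the trend, a robust one, one with array weights and one of the compared groups alone, limma voom on recovered fragments, the GC correction, the block, and each library left out. GC correction together with leaving out PBS 3 was chosen after seeing the data. The fit was tested on simulated data. Tables were handled with pandas 2.3.3 and numpy 2.4.6 in Python 3.11.15 and plotted with matplotlib 3.10.9.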

Additional observations from a re-analysis of the deposited data

How the results depend on the processing

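The number of the 9 genes called for vehicle against PBS was 6, and 3 to 7 with single libraries left out, 7 with libraries at the same FPKM total or in a fit of the groups compared, which added Timp3, 2 after GC correction and 1 after GC correction without PBS 3. For GGsTop against vehicle it was 1, and 0 to 1 with each library of these groups left out. It was 2 without PBS 3, at the same FPKM total, with array weights or when only the groups compared were fitted. After GC correction it was 0, with or without PBS 3. For GGsTop against PBS it was 1, and 0 to 3 with each library left out (3 without PBS 2, and 0 without PBS 1, PBS 3 or OVA/LPS/GGsTop 1), 2 with array weights and 0 after GC correction without PBS 3. Calls over all genes for GGsTop against vehicle went from 254 lower and 966 higher to 155 and 2026 at the same FPKM total. With array weights they were 1982 and 3232, and in a fit of the groups compared 1406 and 2119. For GGsTop against PBS they went from 115 and 288 to 642 and 955 without PBS 2. For vehicle against PBS they went from 3096 and 2231 to 2610 and 1771 in a fit of the groups compared. After GC correction without PBS 3 they were 493 and 242. Beyond the library left out or the correction named, the cause of these shifts was not tested. Without Mmp12 the log2 ratio of metalloproteinases to inhibitors turned to −0.0080 for vehicle against PBS and −0.0287 for GGsTop against PBS, and the mean log2 difference without Mmp12, added after the data were seen, was −0.26, −0.18 and, for GGsTop against vehicle, 0.0790. With single libraries left out, the log2 ratio that includes Mmp12 ranged from 0.21 to 0.49 for vehicle against PBS. For GGsTop against PBS that ratio ranged from 0.0456 to 0.29.

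The 22 changes of sign of single genes concerned differences that were not called. Adam33 for GGsTop against PBS (−0.0207) turned to 0.0404 with array weights, 0.0952 after GC correction, 0.0133 after GC correction without PBS 3, and ranged from −0.22 to 0.10 with libraries left out. Timp3 for the same comparison (0.0675) turned to −0.0093 at the same FPKM total and ranged from −0.14 to 0.21 with libraries left out. Mmp14 for GGsTop against vehicle turned to −0.0158 with array weights and to −0.0615 after GC correction, with or without PBS 3, and Mmp3 to −0.11 with array weights. Mmp2 for vehicle against PBS turned to 0.13 with array weights and 0.0713 after GC correction. Timp1 for vehicle against PBS turned to 0.11 after GC correction without PBS 3 and ranged from −0.74 to 0.0132 with libraries left out. In the paired analysis, with a replicate block, 1 gene was called for GGsTop against PBS, and 1 with the block and GC correction together, Mmp12 both times. The block changed no call of the 9 genes, and it turned the differences of Timp3 to −0.14 and Adam33 to 0.0442, and with GC correction to −0.19 and 0.16.

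With 3 PBS libraries, of which PBS 3 stands apart in its GC slope, the comparisons with PBS rest on few samples. Depth was low for Mmp12 in PBS (77 to 122 fragments), Timp1 in GGsTop (78 to 112) and Mmp9 in OVA/LPS/Vehicle 56 (68). Dixon's criterion was applied to the 9 genes and the log2 ratio in the vehicle and GGsTop groups, 20 groups of 4 libraries, and marked no library. The PBS group, with 3 libraries, was not examined. With 4 values the criterion can miss a library that stands apart, so its outcome does not show that none did.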
